A study of Arabidopsis thaliana with 12 samples.

Results

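The photoreceptor genes of *Arabidopsis* were followed in RNA-seq libraries of whole seedlings, to ask whether any of them rises when *PHYB* is lost and whether the loss of JAZ repressors alters that change. The set was chosen by name and not by a rule on measured values, though earlier results of these data were known. It holds 10 genes of the 33602 in the tables, namely the phytochromes *PHYA* to *PHYE*, the cryptochromes *CRY1* and *CRY2*, the phototropins *PHOT1* and *PHOT2*, and *UVR8*. Their loci are AT1G09570 (*PHYA*), AT2G18790 (*PHYB*), AT5G35840 (*PHYC*), AT4G16250 (*PHYD*), AT4G18130 (*PHYE*), AT4G08920 (*CRY1*), AT1G04400 (*CRY2*), AT3G45780 (*PHOT1*), AT5G58140 (*PHOT2*) and AT5G63860 (*UVR8*). All 10 passed the filter on low counts, with 20957 genes tested. The 4 genotypes were WT (Col-0), *jazQ* (a quintuple mutant in which T-DNA insertions interrupt *JAZ10*, *JAZ9*, *JAZ4*, *JAZ3* and *JAZ1*), *phyB* (the *phyB-9* allele) and *jazQ phyB*, which was made by a cross and combines all of these mutations. There were 3 libraries per genotype, each from a separate pool of seedlings aged 8 days. All 4 genotypes were grown in continuous light at 1 temperature on solid medium with sucrose, and WT and mutants shared plates. Each mutant genotype stands for 1 line.

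Plants read light with families of photoreceptors. Phytochromes switch between a red-absorbing inactive form and a far-red-absorbing active form. phyB is the main red-light phytochrome of green seedlings, and its active form restrains the PIF growth factors, so that *phyB* seedlings are tall. phyA is degraded quickly in light, and it senses far-red light and very weak light. phyC, phyD and phyE act beside phyB. Cryptochromes and phototropins absorb blue light. Cryptochromes control seedling growth and flowering, whereas phototropins bend organs, place chloroplasts and open stomata. UVR8 senses UV-B. JAZ proteins repress transcription factors of the jasmonate pathway, and the *jazQ* line tests what their absence does.

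Total counts ran from 12750074 to 26347184 per library, and each photoreceptor gene had between 169 and 6873 counts in a library, with a floor of 3 counts (0.116 to 0.23 CPM) for detection. Levels below are CPM, which express a count relative to the size of its library, with sizes adjusted by TMM, a method that sets most genes equal between libraries. The mutated genes were checked first, and the *PHYB* values are given below. *JAZ1* was 46.4 to 60.8 CPM in WT and 4.78 to 6.16 in *jazQ*. *JAZ4* was also lower in *jazQ*, *JAZ9* overlapped (61.3 to 88.0 CPM in WT, 79.1 to 84.8 in *jazQ*), and *JAZ3* and *JAZ10* were counted at 568 to 695 and 232 to 274 CPM in *jazQ* against 12.4 to 16.6 and 3.41 to 4.06 in WT. A gene count cannot show on which side of a T-DNA the reads lie, so these counts separate *jazQ* from WT but do not measure intact transcripts. Summed CPM of 15 root genes was 81.9 to 94.7 in the 6 libraries with functional *PHYB* and 107 to 115 in the 6 *phyB-9* libraries, and 5 of 14 tested root genes were higher on loss of *PHYB* averaged over both backgrounds. Summed CPM of 9 shoot genes was 121 to 133 and 102 to 116, and 3 of 9 were lower. Of all genes tested, 14.2% were called in that averaged comparison and 5.78% were called higher. In *phyB* against WT 2 of 14 root genes were higher and 2 of 9 shoot genes lower, where 11.8% of all genes were called. In *jazQ phyB* against *jazQ* 3 of 14 root genes were higher and 0 of 9 shoot genes lower, where 6.79% were called. In *phyB* against WT some genes went against the sums, none of them called. These were *WER* (log2 change −0.08) and *RSL4* (−0.28) of root, and *SPCH* (0.16) and *TMM* (0.05) of shoot. The root and shoot sums move with the *PHYB* genotype, beside the changes described below between genotypes that differ in *PHYB*, and their part in those changes was not tested. In *jazQ* against WT, 0 of the tested root and shoot genes were called, where 1.54% of all genes were called. In *jazQ phyB* against *phyB* 1 of each was higher, where 11.8% of all genes were called. In whole seedlings, fewer cells of a type and less RNA per cell cannot be told apart.

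The phytochromes are close relatives, so whether reads of 50 bases can separate them decides what a *PHYB* or *PHYD* count means. In the RefSeq transcripts (assembly TAIR10.1), no window of 50 bases of any phytochrome, cryptochrome or phototropin gene was identical to another member. Allowing 2 mismatches, 10 of the 4096 windows of *PHYB* (0.244%) matched *PHYD*, and no other pair of members within a family had any. The longest run of bases that both coding sequences share is printed here because it is the place where the 2 genes are hardest to tell apart. It is 43 bases long, starts at base 1946 of the *PHYB* coding sequence (chromosome 2, plus strand) and base 1958 of that of *PHYD* (chromosome 4), and is still shorter than a read.
PHYB and PHYD, shared run: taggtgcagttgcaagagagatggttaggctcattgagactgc
The longest shared run of *PHOT1* and *PHOT2* was 35 bases, and that of *CRY1* and *CRY2* was 17 bases. *PHYE* shared 11 of its 3863 windows with its same-strand neighbour AT4G18140, and the *PHOT2* gene overlaps AT5G58150 on the opposite strand, which was listed at 0 in all 12 libraries.

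PIF factors, which phyB restrains, bind the G-box (CACGTG, the same on both strands) and a related element (CACATG, or CATGTG on the other strand). For that reason, the stretches before the gene called higher in *phyB* and the gene that carried the mutation are shown. Each is the 250 bases before the RefSeq gene start in TAIR10.1, 5′ to 3′ along the gene, with G-box letters in capitals. *PHYA* (AT1G09570) lies on the minus strand of chromosome 1 and *PHYB* (AT2G18790) on the plus strand of chromosome 2, and no exon of another gene is annotated in either stretch.
PHYA, chr1:3100820-3101069: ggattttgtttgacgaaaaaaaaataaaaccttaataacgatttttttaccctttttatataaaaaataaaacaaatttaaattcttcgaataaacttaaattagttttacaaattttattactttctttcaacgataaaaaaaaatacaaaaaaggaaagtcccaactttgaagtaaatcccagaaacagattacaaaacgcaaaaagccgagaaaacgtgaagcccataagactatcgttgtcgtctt
PHYB, chr2:8139506-8139755: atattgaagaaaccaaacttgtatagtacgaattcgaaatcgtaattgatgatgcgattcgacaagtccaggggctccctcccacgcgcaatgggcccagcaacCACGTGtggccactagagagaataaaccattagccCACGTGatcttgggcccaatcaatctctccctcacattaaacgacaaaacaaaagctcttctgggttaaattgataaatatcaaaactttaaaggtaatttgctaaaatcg
The *PHYB* stretch held 2 G-boxes, which begin 146 and 111 bases before the start. The *PHYA* stretch held neither motif. *PHYD* had 1 G-box (75 bases before its start) and 1 CACATG element (131 bases), *PHOT1* had 1 CATGTG element (71 bases), and the other members had none. The *PHYD* stretch overlaps an exon of AT4G16260, that of *PHYE* an exon of AT4G18140 and that of *PHOT2* an exon of AT5G58130. The G-box was thus in 2 of 10 members and in 6.49% of the 27443 protein-coding genes, and the related element in 2 of 10 members and in 11.1% of those genes. A match describes letters only.

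Per unit of transcript length, photoreceptor transcripts covered a wide range in WT. In TPM (the authors' values, scaled for transcript length and library size), *CRY1* (98.8 ± 7.24), *CRY2* (94.2 ± 5.01), *PHOT1* (92.9 ± 9.46) and *PHOT2* (91.1 ± 3.67; SD, n = 3) could not be ranked, since the libraries of each overlapped those of the next. *UVR8* (53.6 ± 6.83), *PHYA* (39.6 ± 0.656), *PHYB* (26.8 ± 1.91), *PHYC* (17.0 ± 0.250), *PHYE* (15.8 ± 0.700) and *PHYD* (5.12 ± 0.505) followed in that order without overlap between neighbours. In *phyB*, *PHOT1* (122 ± 3.63) stood above all other members, and *PHYA* (64.5 ± 3.26) overlapped *UVR8* (66.8 ± 0.476). In *jazQ phyB*, *PHYA* (60.6 ± 3.25) ranked above *UVR8* (51.1 ± 0.761) with no overlap, and *PHYB* (18.5 ± 0.815) overlapped *PHYC* (17.3 ± 0.746).

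**Figure D1:**
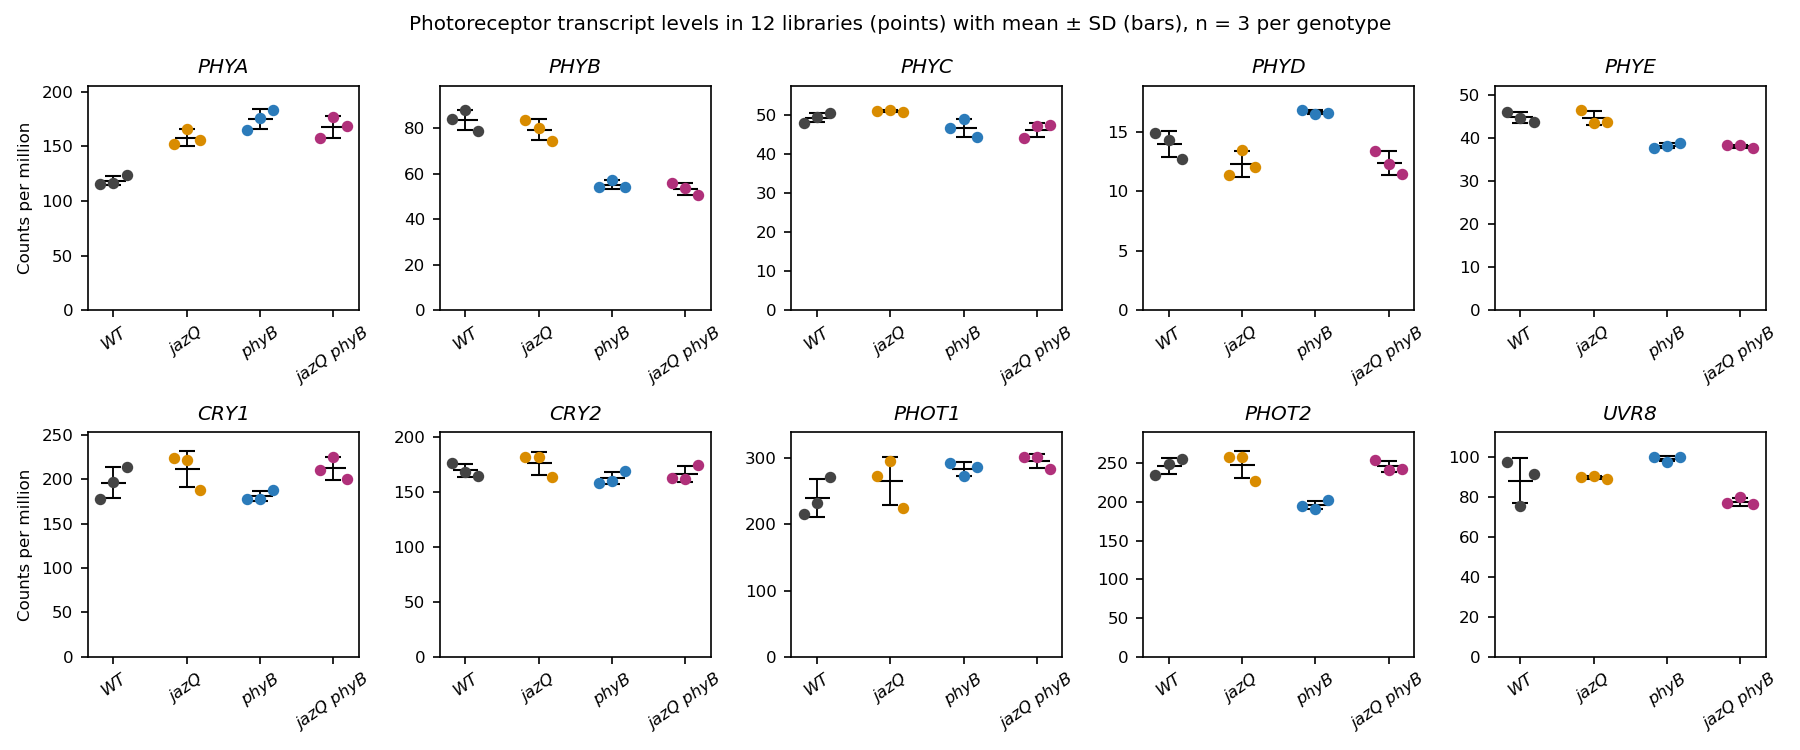
Level of each photoreceptor gene (CPM, linear axes from 0) in the 3 libraries of WT, *jazQ*, *phyB* and *jazQ phyB*; points are libraries and bars are the mean ± SD. The 3 WT libraries are lowest for *PHYA* (116 to 123 CPM), the 6 *phyB-9* libraries are lowest for *PHYB*, and *PHOT2* is low in *phyB* alone (191 to 202 CPM).

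*PHYB*, which encodes the red-light photoreceptor, was counted at 83.9, 88.0 and 78.9 CPM in the WT libraries and at 83.7, 79.9 and 74.5 in *jazQ*. It was 54.2, 57.4 and 54.0 CPM in *phyB* and 56.0, 53.6 and 50.7 in *jazQ phyB*. All 6 *phyB-9* libraries were below all 6 others. *PHYB* fell by 33.9% in *phyB* against WT (log2 fold change −0.60, SE 0.06, adjusted p = 2.3e-05) and fell by 32.7% in *jazQ phyB* against *jazQ* (−0.57, SE 0.06, adjusted p = 7.52e-05; edgeR quasi-likelihood test with Benjamini-Hochberg adjustment over all genes, as throughout). The study uses *phyB-9* as a null allele. Its mutant transcript was still present at about 54 to 57 CPM in *phyB*, so these counts describe mRNA and not functional photoreceptor.

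*PHYA*, the far-red and weak-light sensor, was the only member called higher in *phyB* against WT. Its WT libraries held 116, 116 and 123 CPM, and its *phyB* libraries 165, 176 and 183, with no overlap. It rose 1.47-fold (log2 fold change 0.56, SE 0.06, adjusted p = 3.57e-05). On the TPM scale, where the median of all genes lay at 0.14, *PHYA* was 0.69, and *PHOT1* (0.39, adjusted p = 0.0071) and *UVR8* (0.32, adjusted p = 0.0067) also passed the threshold. Relative to that median the 3 values were 0.55, 0.25 and 0.18. In CPM, *PHYD* (0.25), *PHOT1* (0.24) and *UVR8* (0.17) were also above WT without overlap of libraries. Their unadjusted p was 0.0166, 0.0253 and 0.0405, and none was past the threshold. *PHYB*, *PHYE* and *PHOT2* were called lower. *PHYA* also rose in *jazQ*, where *PHYB* is intact: the libraries held 152, 166 and 156 CPM, 1.33-fold above WT (0.41, SE 0.06, adjusted p = 0.0019). In *jazQ phyB* it was 158, 177 and 168 CPM, which overlapped both single mutants and was 1.41-fold above WT (0.50, SE 0.06, adjusted p = 1.05e-04). Its *jazQ phyB* libraries overlapped those of *jazQ*, with 2 of 3 above the highest *jazQ* library, and the difference between these genotypes was not past the threshold (0.09, 95% interval −0.05 to 0.22, adjusted p = 0.405). The change on loss of *PHYB* differed between the backgrounds, with an interaction (the log2 change in the *jazQ* background minus that in the WT background) of −0.47 (SE 0.09, adjusted p = 0.0047). These comparisons share the WT libraries, and the call of the rise in *jazQ* was lost without WT replicate 1, WT replicate 2 or *jazQ* replicate 2 (adjusted p = 0.0122, 0.0112 and 0.0114) and with only WT and *jazQ* in the model (0.0130). The interaction call was lost without any 1 of 6 libraries, namely WT replicates 1 and 2, *jazQ* replicate 2, *phyB* replicates 2 and 3, and *jazQ phyB* replicate 1, with values from −0.47 to −0.43 and adjusted p of 0.0117 to 0.0174.

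*PHYE*, a minor phytochrome that acts beside phyB, was 46.1, 44.8 and 43.7 CPM in WT and 46.6, 43.6 and 43.9 in *jazQ*. It was 37.9, 38.1 and 38.9 CPM in *phyB* and 38.3, 38.5 and 37.8 in *jazQ phyB*, so the 6 *phyB-9* libraries were again below the other 6. It fell by 14.6% in *phyB* against WT (−0.23, SE 0.05, adjusted p = 0.0076), and its value in *jazQ phyB* against *jazQ* was −0.23 (SE 0.05, adjusted p = 0.0113), just outside the threshold of 0.01. The interaction was 0.00 (SE 0.08, 95% interval −0.16 to 0.16). The fall depends on how libraries are scaled: on the TPM scale it was −0.08 (adjusted p = 0.319) for *phyB* against WT, where the median of all genes lay at 0.14, so that *PHYE* was −0.22 relative to that median. With DESeq2, upper-quartile scaling, only WT and *phyB* in the model, no filter or a replicate block the value was −0.24 to −0.20 and the adjusted p 0.0116 to 0.0160, and without any 1 of the 6 libraries compared it was 0.0120 to 0.0331 (0.0122 without *jazQ phyB* replicate 1).

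*PHYC*, which works together with phyB in red light, was 47.9, 49.5 and 50.4 CPM in WT and 50.9, 51.2 and 50.8 in *jazQ*, whereas *phyB* held 46.5, 49.0 and 44.4 and *jazQ phyB* 44.1, 47.1 and 47.3 CPM. Its *phyB* libraries overlapped WT (−0.08, adjusted p = 0.346). Its *jazQ phyB* libraries lay below those of *jazQ* (−0.14, SE 0.06, adjusted p = 0.105) and of WT (−0.09, SE 0.06, adjusted p = 0.279) without overlap. None of these differences was past the threshold. *PHYD*, the closest relative of *PHYB* and the least abundant member, was 14.8, 14.3 and 12.7 CPM in WT and 11.3, 13.5 and 12.1 in *jazQ*. The values were 16.8, 16.5 and 16.6 CPM in *phyB* and 13.4, 12.3 and 11.4 in *jazQ phyB*. The *phyB* libraries were the 3 highest of the 12. Against WT, *PHYD* in *phyB* was not past the threshold (0.25, SE 0.09, adjusted p = 0.0658), and it fell by 25.4% in *jazQ phyB* against *phyB* (−0.42, SE 0.09, adjusted p = 0.0049). This call was lost without *phyB* replicate 1, 2 or 3 or *jazQ phyB* replicate 2 or 3 (adjusted p of 0.0172 to 0.0204) and on the TPM scale (0.0119).

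*PHYA* took 38.0 ± 1.49% of the summed TPM of the 5 phytochrome genes in WT, 45.5 ± 1.43% in *jazQ*, 52.2 ± 1.48% in *phyB* and 52.3 ± 1.56% in *jazQ phyB* (SD, n = 3). *PHYB* took 25.7 ± 1.27%, 21.9 ± 1.11%, 15.8 ± 0.529% and 16.0 ± 1.06%. The ratio of *PHYA* to *PHYB* TPM was therefore 1.48 ± 0.133 in WT, 2.08 ± 0.162 in *jazQ*, 3.30 ± 0.204 in *phyB* and 3.28 ± 0.301 in *jazQ phyB*. A share is bound to rise when another falls, but the sum was not constant either, at 104 ± 2.35 TPM in WT and 124 ± 3.76 in *phyB*. The TPM scale itself moved the median of all genes by 0.14 (log2) in *phyB* against WT, so the difference between these sums includes that shift. *PHYD* took between 3.60 and 5.71% in all libraries.

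**Figure D2:**
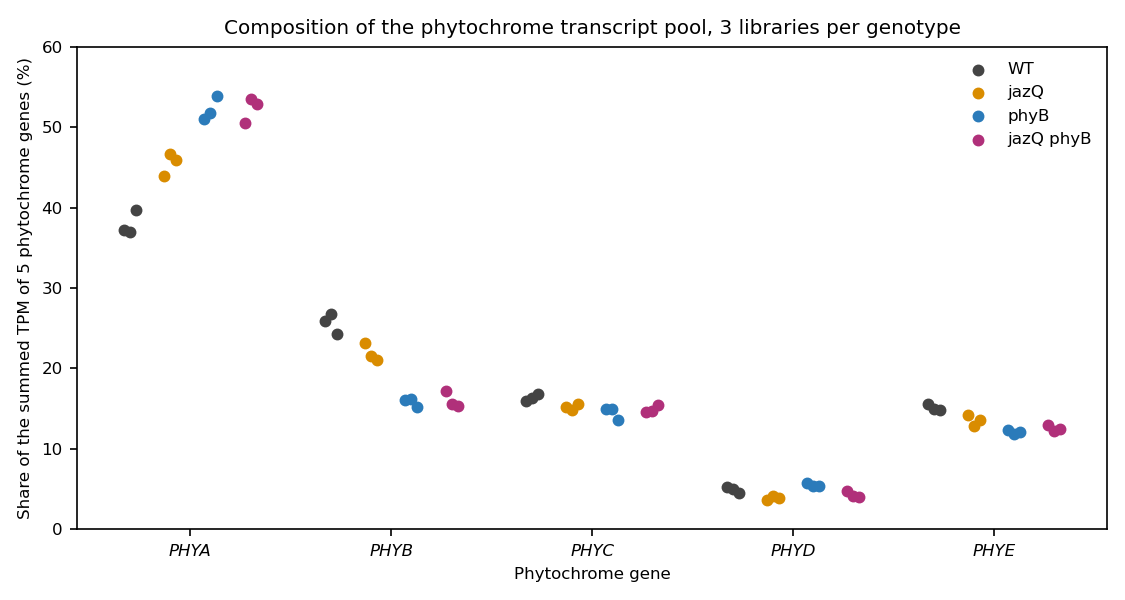
Share of each phytochrome gene in the summed TPM of *PHYA* to *PHYE* (y axis, %), by gene and genotype; each point is 1 of 12 libraries. *PHYA* moves from 37.0 to 39.7% in WT to 51.0 to 53.9% in *phyB*, and *PHYB* from 24.3 to 26.8% to 15.2 to 16.2%.

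Among the blue-light receptors, *CRY1*, the main cryptochrome in strong blue light, was 178, 197 and 214 CPM in WT and 224, 222 and 188 in *jazQ*. It was 177, 178 and 188 CPM in *phyB* and 211, 226 and 201 in *jazQ phyB*. Its libraries did not overlap between *phyB* and *jazQ phyB*, but the difference was not past the threshold (0.23, SE 0.08, adjusted p = 0.0561). *CRY2*, which is degraded in blue light and promotes flowering, was 176, 168 and 164 CPM in WT and 182, 182 and 164 in *jazQ*, whereas *phyB* held 158, 160 and 169 and *jazQ phyB* 163, 161 and 174 CPM. For *CRY2* the libraries of the genotypes overlapped in all 5 comparisons of 1 genotype with another.

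*PHOT1*, the phototropin for weak light, was 215, 232 and 272 CPM in WT and 273, 296 and 225 in *jazQ*. The values were 292, 273 and 286 CPM in *phyB* and 302, 303 and 283 in *jazQ phyB*. WT and *jazQ* spread widely (SD 29.2 and 36.3 CPM), whereas both *phyB-9* genotypes lay above every WT library, in *phyB* by less than 1 CPM at the nearest point. *PHOT1* in *phyB* against WT was 0.24 (SE 0.10, adjusted p = 0.0892). *PHOT2*, the phototropin for strong light and chloroplast avoidance, was 235, 248 and 255 CPM in WT and 259, 258 and 228 in *jazQ*. It was 195, 191 and 202 CPM in *phyB* and 254, 241 and 242 in *jazQ phyB*. It was low in *phyB* only: it fell by 20.3% against WT (−0.33, SE 0.06, adjusted p = 0.0019), was 1.25-fold higher in *jazQ phyB* than in *phyB* (0.33, SE 0.06, adjusted p = 0.0019), and had a value of −0.01 (95% interval −0.14 to 0.12) in *jazQ phyB* against *jazQ*. The first 2 of these comparisons share the *phyB* libraries, and both calls were lost without *phyB* replicate 2 (adjusted p = 0.0136 and 0.0134) or *phyB* replicate 1 (0.0104 and 0.0101), and the second also without *jazQ phyB* replicate 1 (0.0121). On the TPM scale the fall against WT was −0.18 (adjusted p = 0.0377), or −0.32 relative to the median of all genes. The interaction was not past the threshold (0.31, SE 0.09, adjusted p = 0.0362).

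*UVR8*, the UV-B receptor, was 97.1, 75.3 and 91.4 CPM in WT and 89.9, 90.3 and 88.9 in *jazQ*, whereas *phyB* held 99.7, 97.4 and 100.1 and *jazQ phyB* 76.7, 79.9 and 76.2 CPM. WT spread over most of the range of the other groups. *UVR8* fell by 21.7% in *jazQ phyB* against *phyB* (−0.35, SE 0.07, adjusted p = 0.0039). The signs on loss of *PHYB* were opposite in the 2 backgrounds, 0.17 (SE 0.07, adjusted p = 0.124) and −0.21 (SE 0.07, adjusted p = 0.0775), neither of which was past the threshold, nor was the interaction (−0.38, SE 0.11, adjusted p = 0.0375). The call against *phyB* was lost when any 1 of the 6 libraries compared was left out (adjusted p of 0.0101 to 0.0192).

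**Figure D3:**
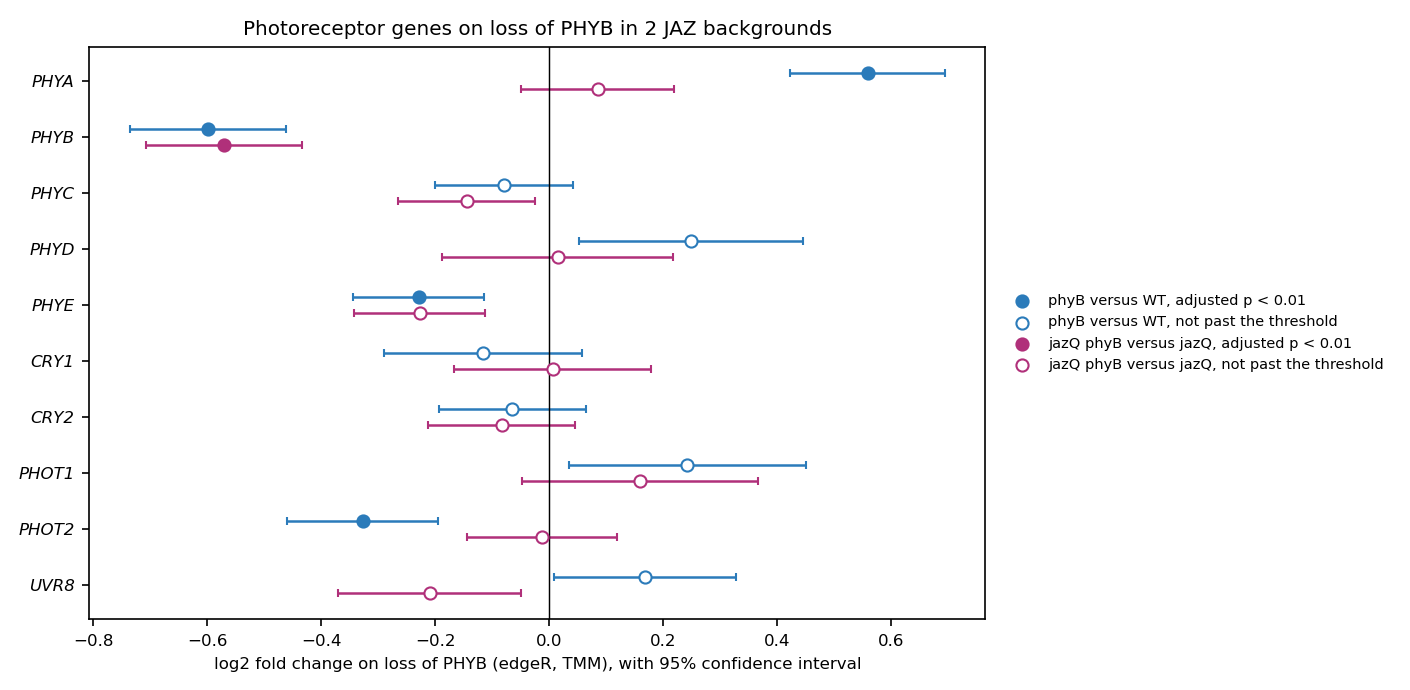
Log2 fold change of each photoreceptor gene on loss of *PHYB* (x axis) in the WT background and in the *jazQ* background, with 95% confidence intervals; filled points have an adjusted p below 0.01. *PHYB* and *PHYE* have nearly equal values in both backgrounds, whereas *PHYA* is at 0.56 and 0.09 and *PHOT2* at −0.33 and −0.01.

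Counted over the set, 4 of 10 photoreceptor genes were called in *phyB* against WT (1 higher, *PHYA*; 3 lower, *PHYB*, *PHYE* and *PHOT2*). Of all genes tested, 11.8% were called in that comparison, and 4.7% were called higher. The 6 members not called ranged from −0.12 to 0.25. In either direction, 7 of 10 members were at an unadjusted p below 0.05, with *PHYD*, *PHOT1* and *UVR8* higher among them. In *jazQ phyB* against *jazQ*, 1 of 10 was called (*PHYB*, lower), where 6.79% of all genes were called and 2.63% were called higher. No member was called higher there, with 0 also at an unadjusted p below 0.05 and 0 with DESeq2. The median log2 change of the members was −0.07 in *phyB* against WT and −0.05 in *jazQ phyB* against *jazQ*, beside 0.01 for all genes in both. The median absolute change was 0.24 and 0.11 for the members, and 0.17 and 0.15 for all genes. These 2 comparisons share no library. The counts and medians of members, here and below, include *PHYB*, the gene that carries the mutation and served as a check of the genotypes.

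Averaged over both JAZ backgrounds, loss of *PHYB* raised *PHYA* (0.32, SE 0.04, adjusted p = 1.39e-04) and lowered *PHYB* (−0.58, SE 0.05, adjusted p = 1.02e-06) and *PHYE* (−0.23, SE 0.04, adjusted p = 6.08e-04). Thus 3 of 10 members were called, where 14.2% of all genes were called and 5.78% were called higher. The average for *PHYA* combines 2 changes that differ by the interaction above. *PHOT2* was −0.17 (adjusted p = 0.0112) and *PHOT1* was 0.20 (adjusted p = 0.0443). *PHYC* was −0.11, *PHYD* 0.13, *CRY1* −0.05, *CRY2* −0.07 and *UVR8* −0.02, with adjusted p of 0.0528 to 0.811. The TPM scale moved the median of all genes by 0.12 in this comparison. On it *PHYC*, *CRY1*, *CRY2* and *UVR8* turned positive, *PHOT1* passed the threshold (0.33, adjusted p = 0.0021) and *PHYE* did not (−0.09, adjusted p = 0.0833). Relative to the median of all genes on the TPM scale, *PHYA* was 0.32, *PHYB* −0.56, *PHYE* −0.21 and *PHOT1* 0.21. *PHYC* was −0.11, *CRY1* −0.05, *CRY2* −0.06 and *UVR8* −0.01, so the members that turned positive stayed below that median. *PHYD* was 0.10 and *PHOT2* −0.16. The share of higher genes among all calls was 40.8% here and 82.6% on the TPM scale, and 40% and 78.4% for *phyB* against WT.

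The other comparisons touched few members. In *jazQ* against WT, *PHYA* was the single call of 10, where 1.54% of all genes were called. The 9 others ranged from −0.19 to 0.14, with 0 at an unadjusted p below 0.05 and 0 called by DESeq2. In *jazQ phyB* against *phyB*, 3 of 10 were called (*PHOT2* higher, *PHYD* and *UVR8* lower), where 11.8% of all genes were called. In *jazQ phyB* against WT, 3 of 10 were called, *PHYA* higher and *PHYB* (−0.64, SE 0.06, adjusted p = 1.41e-05) and *PHYE* (−0.23, SE 0.05, adjusted p = 0.0072) lower, where 9.77% of all genes were called. The *PHYE* call was lost with DESeq2 (adjusted p = 0.0124), with the other alternatives on counts (0.0108 to 0.0317), on the TPM scale (−0.11, adjusted p = 0.182) and without any WT or *jazQ phyB* replicate or *phyB* replicate 1 or 2 (0.0112 to 0.0363). For the interaction, 1 of 10 was called (*PHYA*), where 3.61% of all genes were called.

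Genes that make, move or answer to the photoreceptors were listed by name, and 26 of 27 that could be matched were tested. Of these, 4 were higher and 5 lower in *phyB* against WT, 2 were higher and 1 lower in *jazQ phyB* against *jazQ*, and none was called in *jazQ* against WT (8 at an unadjusted p below 0.05, and 2 with DESeq2). A further 10 listed loci, whose names the gene table does not hold, were left out of these counts. Of them, 5 were lower in *phyB* against WT, 1 was lower in *jazQ phyB* against *jazQ* and 1 was lower in *jazQ* against WT, and 0 were higher in these 3 comparisons. The median log2 change of the 26 was −0.09 and −0.12 in the first 2 comparisons, beside 0.01 for all genes in both. Of all genes tested, 11.8%, 6.79% and 1.54% were called in the 3 comparisons, in that order.

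*FHL*, which with its relative FHY1 carries phyA into the nucleus, had the largest rise among the partners and rose in both backgrounds. It was counted at 1.71, 1.76 and 2.17 CPM in WT and 5.48, 3.93 and 4.96 in *phyB*, a 2.56-fold rise (1.36, SE 0.18, adjusted p = 1.07e-04). In *jazQ* it was 1.85, 1.69 and 1.43 CPM and in *jazQ phyB* 3.78, 3.53 and 3.75, a 2.21-fold rise (1.14, SE 0.18, adjusted p = 0.0011). The *FHL* interaction was −0.21 (SE 0.26, 95% interval -0.77 to 0.34). Its counts were low, at 20 to 93 per library. Among other phytochrome partners, *HMR* (HEMERA, needed for phytochrome nuclear bodies and plastid transcription) rose in *phyB* against WT (0.42, SE 0.07, adjusted p = 8.45e-04) and was −0.26 (SE 0.07, adjusted p = 0.0284) in *jazQ phyB* against *jazQ*. *TZP*, a zinc-finger protein that associates with phytochromes, fell in *phyB* (−0.41, SE 0.07, adjusted p = 0.0015) and was 0.06 (SE 0.08, adjusted p = 0.645) in the *jazQ* background. In *jazQ* against WT *TZP* was −0.35 (SE 0.07, adjusted p = 0.0153), not past the threshold. Its libraries were 80.1 to 96.4 CPM in WT, 65.8 to 73.9 in *jazQ*, 64.4 to 72.2 in *phyB* and 71.7 to 76.2 in *jazQ phyB*. *LRB2*, an adaptor for degradation of phyB, was called in the average over both backgrounds alone of the 3 comparisons of *PHYB* loss (−0.16, SE 0.04, adjusted p = 0.0078). The *LRB2* call was kept in 1 of the 12 fits without 1 library, that without *jazQ phyB* replicate 3, and it was lost on the TPM scale (−0.03, adjusted p = 0.561), as was the *TZP* call (−0.25, adjusted p = 0.0334).

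Among phototropin partners, *RPT2* was counted at 566 to 587 CPM in WT and 389 to 404 in *phyB*. *RPT2*, which acts with phototropins in bending, fell in *phyB* (−0.54, SE 0.06, adjusted p = 2.08e-05) and had a value of 0.11 (SE 0.06, adjusted p = 0.224) in *jazQ phyB* against *jazQ*. *NPH3*, the phot1 adaptor for phototropism, rose in *phyB* (0.51, SE 0.08, adjusted p = 3.85e-04) and was 0.10 (SE 0.08, adjusted p = 0.455) in the *jazQ* background. *BLUS1*, a kinase that phototropins phosphorylate in guard cells, fell in *phyB* (−0.89, SE 0.14, adjusted p = 5.47e-04) and was −0.52 (SE 0.14, adjusted p = 0.0268) in the *jazQ* background. *PKS4*, a substrate of phot1, was 12.1 to 13.8 CPM in WT, 8.00 to 13.3 in *jazQ*, 8.95 to 10.01 in *phyB* and 16.1 to 25.3 in *jazQ phyB*. It rose in *jazQ phyB* against *jazQ* (0.83, SE 0.17, adjusted p = 0.0050), and the interaction was 1.25 (SE 0.25, adjusted p = 0.0067). The first call was lost without *jazQ* replicate 1 or 3 or *jazQ phyB* replicate 1 or 2 (0.64 to 0.91, adjusted p of 0.0140 to 0.0233). It was also lost with only *jazQ* and *jazQ phyB* in the model (adjusted p = 0.0238) and on the TPM scale without a filter (0.01004). The interaction call was lost without WT replicate 2 or 3, *jazQ* replicate 1, any *phyB* replicate, or *jazQ phyB* replicate 1 or 2 (1.06 to 1.33, adjusted p of 0.0120 to 0.0208). It was also lost on the TPM scale (1.13, adjusted p = 0.0110).

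*FKF1*, a blue-light receptor with a LOV domain that times flowering, moved in opposite directions. It was 16.7, 14.9 and 14.2 CPM in WT and 11.2, 13.7 and 10.995 in *jazQ*. The values were 25.8, 26.6 and 21.2 CPM in *phyB* and 5.89, 7.58 and 5.56 in *jazQ phyB*. The *phyB* libraries were the highest and the *jazQ phyB* libraries the lowest of the 12. *FKF1* rose in *phyB* against WT (0.67, SE 0.12, adjusted p = 0.0014), fell in *jazQ phyB* against *jazQ* (−0.92, SE 0.14, adjusted p = 7.35e-04) and had an interaction of −1.59 (SE 0.19, adjusted p = 0.000217). Its rise in *phyB* was not called without *phyB* replicate 2 (adjusted p = 0.0105). *CRY3*, a cryptochrome relative of organelles, fell in *phyB* (−0.47, SE 0.09, adjusted p = 0.0029), a call lost without WT replicate 1 or *phyB* replicate 1 or 2 (adjusted p of 0.0130 to 0.0163) and on the TPM scale (−0.31, adjusted p = 0.0328). *CRY3* was −0.12 (SE 0.09, adjusted p = 0.415) in the *jazQ* background. *RUP2*, which returns UVR8 to its inactive dimer, fell in *phyB* (−0.83, SE 0.11, adjusted p = 1.35e-04) and was −0.26 (SE 0.11, adjusted p = 0.129) in the *jazQ* background. Of 4 tested genes for the phytochrome chromophore, *HO3*, a minor heme oxygenase at 9 to 37 counts per library, fell in the average (−1.002, SE 0.20, adjusted p = 0.0024).

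**Figure D4:**
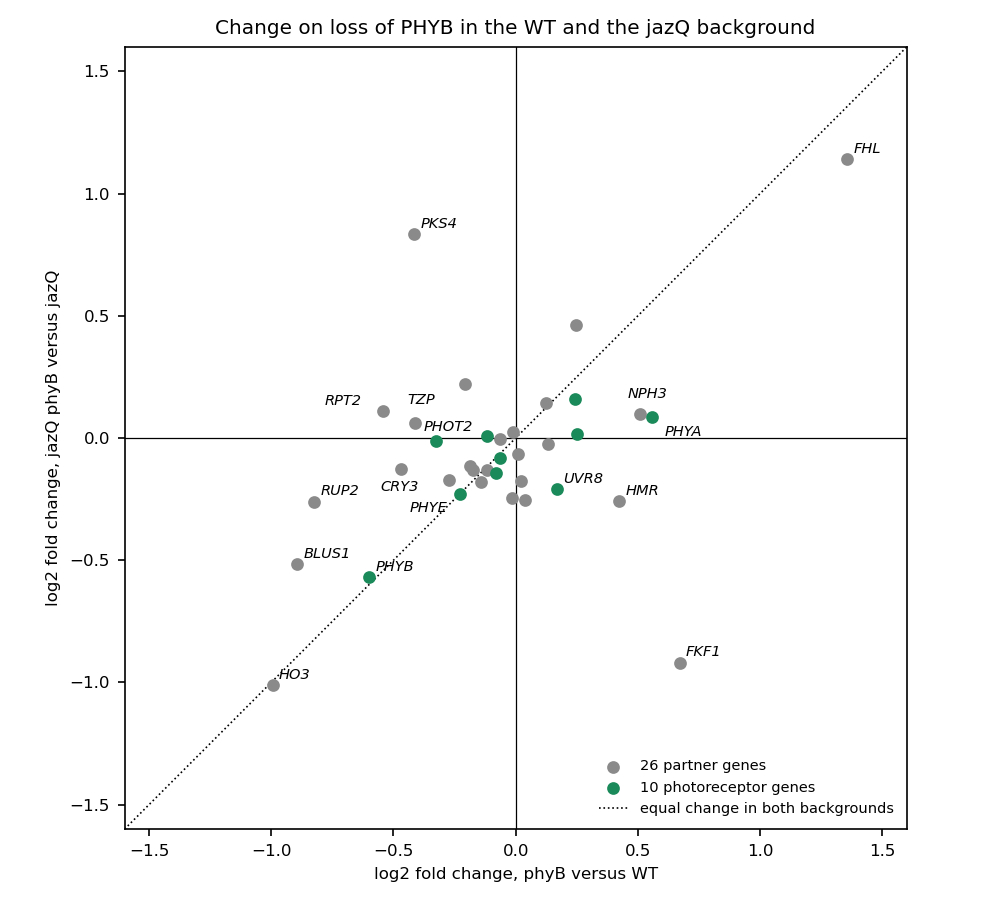
Log2 fold change on loss of *PHYB* in the *jazQ* background (y axis) against that in the WT background (x axis) for the 10 photoreceptor genes and 26 partner genes; the dotted line marks equal change. *PHYB*, *PHYE* and *FHL* lie near the line, *PHYA* lies at 0.56 and 0.09, and *FKF1* lies at 0.67 and −0.92.

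The genes whose log2 CPM followed *PHYA* most closely over the 12 libraries, among genes of at least 10 CPM on average, were AT1G03495 (Pearson r = 0.968) and *GAUT15* (0.952). AT1G03495 averaged 8.28, 10.2, 11.9 and 11.1 CPM and *GAUT15* 10.8, 14.4, 15.2 and 16.3 in WT, *jazQ*, *phyB* and *jazQ phyB*. For *PHYE* they were *VAR2* (0.979) and AT5G14260 (0.978), which averaged 919 and 225 CPM in WT and 704 and 170 in *phyB*. These correlations are descriptions over libraries that share genotypes and depth, and carry no test.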

How the data were processed

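RNA of whole seedlings was sequenced in 12 libraries, and single-end reads of 50 bases were assigned by the authors to TAIR10 gene models with RSEM 1.2.11 at default settings. The authors deposited an expected count per gene and library, which was a whole number in 100% of cases and not normalized. The deposited TPM values were scaled by the authors for transcript length and library size. Libraries were grouped by genotype from the labels. Genes passing filterByExpr (minimum count 10) were normalized by TMM and fitted with the quasi-likelihood model of edgeR 4.0.16 (R 4.3.3), with 1 coefficient per genotype and 7 contrasts. Genes were called at a Benjamini-Hochberg adjusted p-value below 0.01. Alternatives were DESeq2 1.42.0, upper-quartile scaling, only the genotypes compared, no filter, a replicate block, limma-trend (limma 3.58.1) on log2(TPM + 1) and log2(TPM + 0.1) with a mean of at least 1 TPM in a genotype or no filter, a threshold of 0.05, and each library left out. The pipeline was tested on simulated data.

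The members and gene lists were chosen with earlier results of these data known. All 10 members were described in every library. In each comparison, members past the threshold were named with their statistics and the others were summarized, except for the average over both backgrounds, where all were named. Partners past the threshold on loss of *PHYB* were named (12 of 26 tested). For members other than *PHYB* called in that average, the 2 most correlated genes were named. Of 37 listed partners, 27 had their name as a symbol or synonym of their locus in the RefSeq gene table and were used. Sequences are RefSeq, TAIR10.1. Coordinates are of that assembly, whereas counts follow the authors' TAIR10 gene models. Replicate libraries differed by more than counting noise (chi-square per degree of freedom 2.25 to 14.7). Intervals and floors cover the spread between these libraries and counting error only.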

Additional observations from a re-analysis of the deposited data

Results flagged for a closer look

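For 1 of 10 photoreceptor genes and 5 of the 26 partners tested, the change on loss of *PHYB* differed between the *jazQ* and the WT background. This is by the interaction test (edgeR, adjusted p below 0.01 over all genes), which called 3.61% of all genes tested. For *PHYA* the difference was −0.47 on the log2 scale, with 0.56 in the WT background and 0.09 in the *jazQ* background. The difference was −1.59 for *FKF1* and −0.68 for *HMR*, both of which were lowest in *jazQ phyB*. It was 0.65 for *RPT2*, which was lowest in *phyB*, 0.43 for *PKS2*, a phytochrome kinase substrate family member, and 1.25 for *PKS4*, which was highest in *jazQ phyB*. *PKS2* was called in none of the comparisons of *PHYB* loss and was named after its values were seen. It was −0.21 (SE 0.06, adjusted p = 0.0297) in the WT background and 0.22 (SE 0.06, adjusted p = 0.0280) in the *jazQ* background, and its interaction (adjusted p = 0.0081) was not called on the TPM scale (0.0191), with a replicate block (0.0127) or without 9 of the 12 libraries, with WT replicate 3, *jazQ* replicate 2 and *phyB* replicate 3 the exceptions (0.0115 to 0.0281).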

How the results depend on the processing

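*PHYA* and *PHYB* kept their calls for *phyB* against WT, *jazQ phyB* against WT and the average over both backgrounds under all alternatives run, as did *PHYB* for *jazQ phyB* against *jazQ*. At an adjusted p below 0.05, 2 members were called in *jazQ phyB* against *jazQ*, 5 in the average over both backgrounds and 3 for the interaction. This looser threshold also calls more of all genes, so these counts cannot be read beside the shares given for 0.01. With only the genotypes compared in the model, 0 were called in *jazQ* against WT. On the TPM scale, with or without the filter, the average for *PHYC* turned to 0.014 (0.015 with the smaller pseudocount), for *CRY1* to 0.074 (0.075), for *CRY2* to 0.056 (0.056) and for *UVR8* to 0.110 (0.112). Relative to the median of all genes on log2(TPM + 1), these averages were −0.106, −0.047, −0.065 and −0.010 in that order, all below the median. Upper-quartile scaling turned *UVR8* to 0.011. These scales moved the median of all genes, by 0.12 for TPM and 0.03 for the upper quartile in that comparison, and the share of higher genes among all calls from 40.8% to 82.6% and 52%. For *phyB* against WT that share was 40% in the model reported, 48% with the upper quartile and 78.4% on the TPM scale, and for *jazQ phyB* against *jazQ* 38.8%, 49.8% and 73.6%. For *jazQ phyB* against WT it was 38.4% and 71.8% on the TPM scale, and for the interaction 52.8% and 41.1%. With 1 library left out, the number of members called ranged from 2 to 4 in *phyB* against WT, from 0 to 1 in *jazQ* against WT, from 0 to 3 in *jazQ phyB* against *phyB* and from 0 to 1 for the interaction, and the average for *UVR8* from −0.070 to 0.018.

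Same-numbered libraries of different genotypes correlated from −0.212 to 0.312, above 0.1 in 3 of 18 pairs, and differently numbered ones from −0.343 to 0.317. These ranges show no pairing by replicate number but cannot exclude one, for example between some of the genotypes. A replicate block called 3 members in *phyB* against WT, 2 in *jazQ phyB* against WT and the same number as without it in the other 5 comparisons. The 2 calls of members lost were those of *PHYE* (adjusted p = 0.0116 and 0.0108). The fall of *PHYE* in *phyB* (14.6%) was not called under any alternative at the threshold of 0.01 other than 5 of the 12 fits without 1 library, each of which left out a *jazQ* or *jazQ phyB* library. That of *PHOT2* (20.3%) was lost on the TPM scale and without *phyB* replicate 1 or 2. The cause was not tested.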
